A study of Mus musculus with 8 samples.

Results

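The collagens are the main structural proteins of the extracellular matrix, and their transcripts were compared here between embryoid bodies and embryonic stem (ES) cells, and between samples labelled Bmi1 and their controls at each of these stages. The 42 genes were all those whose symbol in the platform annotation is Col, a number, a, and a number, measured by 82 probe sets that carry 1 symbol, out of 18193 genes measured this way. Where a gene had several probe sets, the one with the highest mean over the 8 arrays stood for it. By class, 11 were fibrillar, 6 basement membrane, 9 FACIT (fibril-associated collagens with interrupted triple helices), 5 beaded filament, 3 short-chain network, 2 multiplexin, 4 transmembrane and 1 anchoring fibril collagens, and Col26a1 was kept apart as 1 other. No member was chosen by its values.

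All samples came from CCE cells, a mouse ES cell line of strain 129/Sv, and were hybridised to Affymetrix arrays. The groups were embryoid bodies labelled Bmi1 (2 arrays), empty vector embryoid bodies (2 arrays), ES cells labelled Bmi1 (2 arrays) and control ES cells (2 arrays, of which 1 was untreated and 1 carried the empty vector). Per the labels' protocols, mouse Bmi1 cDNA or an empty vector was brought by lentivirus into the ES cells with polybrene, cells positive for eGFP were sorted after passaging, and embryoid bodies, the aggregates in which ES cells differentiate in suspension, were grown in bacterial dishes and harvested on day 10. The transduced cells are sorted populations, and the untreated ES cells were not transduced. The labels do not say that replicates were separate cultures, so p-values measure the spread between arrays, which may be technical.

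Collagens are trimers wound into a triple helix from chains rich in glycine and proline. Fibrillar collagens (types I, II, III, V and XI among others) assemble into the banded fibres of connective tissue and cartilage, while type IV forms the sheet of the basement membrane, FACITs sit on the surface of fibrils, and type VI makes beaded filaments around cells. In differentiating embryoid bodies, endoderm lays down basement membrane and mesenchymal cells produce fibrillar collagens.

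The labels were checked first on Bmi1 itself, a subunit of Polycomb repressive complex 1. Among embryoid bodies its log2 signal was 7.48 and 8.51 under the Bmi1 label, against 9.35 and 9.67 under the vector label. Among ES cells it was 5.68 and 6.28 under the Bmi1 label, against 7.41 (untreated) and 7.74 (empty vector). The signal was thus lower under the Bmi1 label in all arrays of both stages. By limma the difference was -1.51 ± 0.37 in embryoid bodies (SE, adjusted p = 0.309) and -1.59 ± 0.37 in ES cells (adjusted p = 0.265), and neither was called. With the embryoid body replicate number as a block both were called (limma, adjusted p = 0.0404 in embryoid bodies and 0.0414 in ES cells). No source used here says if the transduced cDNA covers the probe set, and whether the labels were exchanged was not tested. With exchanged labels the sign of every Bmi1 difference given here would turn, so the groups are called "labelled Bmi1" throughout. All 10 ES cell markers fell in embryoid bodies, both in the arrays labelled Bmi1 (the Bmi1 arm) and in vector embryoid bodies against control ES cells (the control arm; limma, adjusted p under 0.05). The values are log2 signals on a scale where a difference of 1 is a doubling, and the median probe set of an array read 5.57 to 5.97. A gene was tested if it exceeded the array's median in at least 2 of the 8 arrays, which 29 collagens did. Of these, 10 passed through embryoid body arrays alone (Col1a1, Col1a2, Col3a1, Col4a5, Col4a6, Col6a1, Col9a2, Col14a1, Col23a1 and Col26a1). Col11a2 passed through ES cell arrays alone, and 18 through arrays of both stages, so the first 11 were bound to differ between stages to some extent. The remaining 13 are described as dim.

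**Figure D1:**
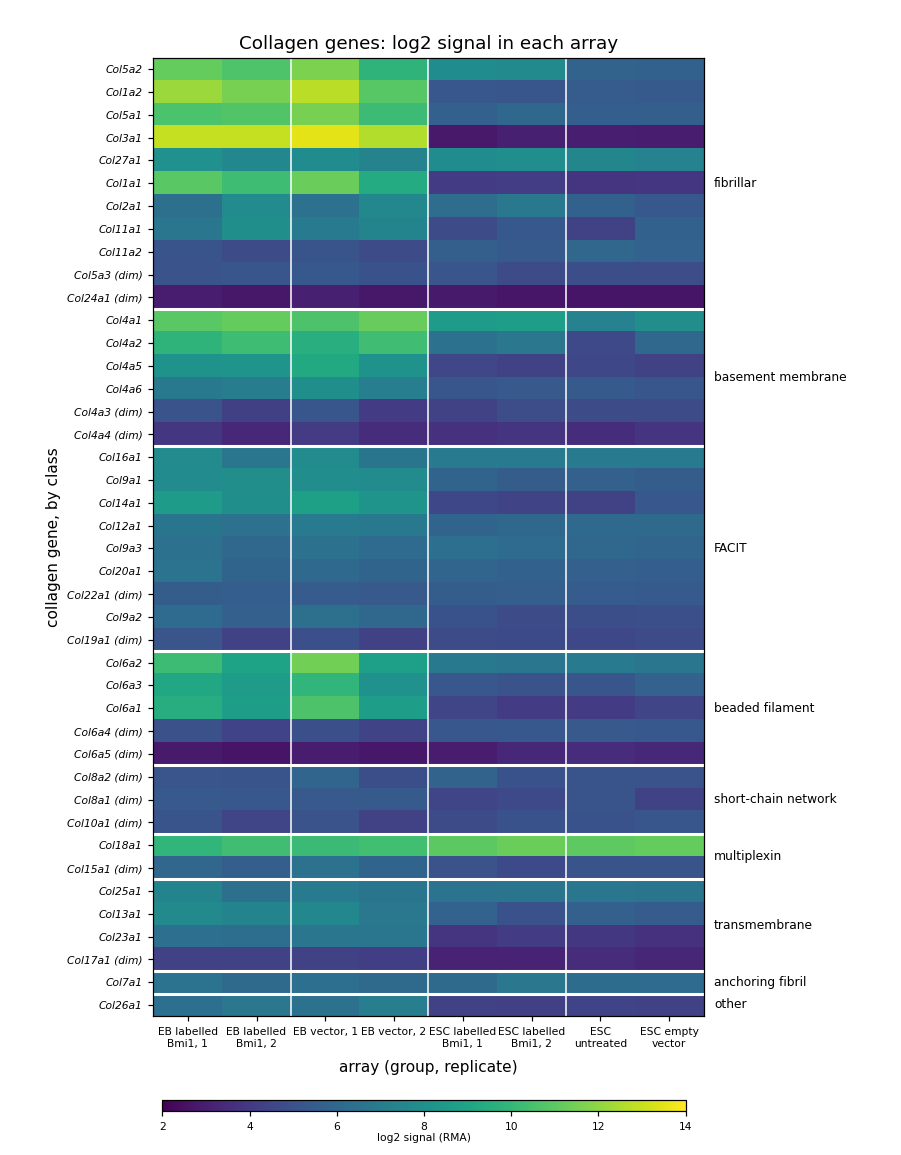
Log2 signal of the 42 collagen genes (rows, by class) in the 8 arrays (columns), to be read along each row, since different probe sets cannot be compared in level. Col3a1 reads 12.60 to 13.52 in the 4 embryoid body arrays and 2.80 to 3.06 in the 4 ES cell arrays, while Col18a1 reads lower in embryoid bodies (9.90 to 10.37) than in ES cells (11.00 to 11.31).

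Collagen transcripts were much higher in embryoid bodies than in ES cells, led by types III, I, V, VI and IV. In the control arm, 21 of the 29 tested collagens rose and 2 fell (limma, adjusted p under 0.05), where 22.7% of the 12982 genes tested rose and 35.8% fell, 58.5% in all. In the Bmi1 arm, 20 collagens rose and 2 fell, where 21.2% of all genes rose and 38% fell, 59.2% in all. The median log2 difference of the tested collagens was 2.29 in the Bmi1 arm and 2.26 in the control arm, where the medians over all genes were -0.27 in the Bmi1 arm and -0.24 in the control arm. With no filter, 22 of all 42 members rose and 1 fell in the Bmi1 arm, where 3573 of all 18193 genes rose and 5085 fell (47.6% in either direction). In the control arm 23 members rose and 3 fell, where 3787 of all genes rose and 4798 fell (47.2% in either direction). The medians of all 42 members were then 0.81 in the Bmi1 arm and 0.96 in the control arm. Both stage comparisons are confounded with the array sets, since the sorted values of the 4 ES cell arrays formed a set apart from those of the embryoid body arrays, so that stage and array set cannot be told apart. The embryoid body replicates 1 and replicates 2 formed a further set each. When the 8 arrays were brought to 1 distribution (quantile normalization), the medians over all genes were -0.02 in the Bmi1 arm and -0.04 in the control arm. Rises then made up 47.5% of all calls in the Bmi1 arm, in place of 35.8%, and 48.8% in the control arm, in place of 38.8%, and 19 collagens rose and 1 fell in each arm. Of the 29 tested collagens, 20 had several probe sets, and in each arm these had the same sign for 17 and opposite signs for 3 (Col12a1, Col20a1 and Col27a1 in the Bmi1 arm, and Col12a1, Col20a1 and Col9a3 in the control arm). For 13 of the 17 in each arm another probe set differed in size from the one used by over 1.5 times, so the sizes below hold for the probe set used. In bulk samples such as these, fewer cells of a type and less RNA per cell cannot be told apart.

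The fibrillar class held the largest differences. Col3a1, the chain of the homotrimeric collagen III of extensible tissues, read 12.96 and 12.97 in embryoid bodies labelled Bmi1 and 13.52 and 12.60 in vector embryoid bodies, against 2.80 and 3.06 in ES cells labelled Bmi1 and 2.99 and 2.92 in control ES cells. The difference was 10.04 ± 0.29 in the Bmi1 arm (adjusted p = 1.41e-05) and 10.11 ± 0.29 in the control arm (adjusted p = 9.01e-06; limma, SE, n = 2 and 2 arrays here and in every stage difference). In ES cells the probe set lay above 1.06% to 3.98% of all probe sets of its array, at the low end of what the arrays resolve. The ratio of stages is therefore not a measure of the ES cell level.

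Col1a2, which with Col1a1 makes the collagen I of bone, skin and tendon, read 12.20 and 11.52 in embryoid bodies labelled Bmi1 and 12.76 and 10.90 in vector embryoid bodies, against 5.26 and 5.23 in ES cells labelled Bmi1 and 5.50 and 5.41 in control ES cells. It rose by 6.62 ± 0.54 in the Bmi1 arm and by 6.38 ± 0.54 in the control arm. Its partner Col1a1 read 10.93 and 10.30 in embryoid bodies labelled Bmi1 and 11.27 and 9.40 in vector embryoid bodies, against 4.10 and 4.18 in ES cells labelled Bmi1 and 3.82 and 3.89 in control ES cells, differences of 6.47 ± 0.54 in the Bmi1 arm and 6.48 ± 0.54 in the control arm. By the second probe set of each, Col1a2 differed by 8.25 in the Bmi1 arm and 7.97 in the control arm, and Col1a1 by 4.80 in the Bmi1 arm and 4.22 in the control arm. Both chains of collagen I thus rose with no overlap between stages, by amounts that depended on the probe set, although vector embryoid body replicate 2 read well below replicate 1 for each of them.

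The chains of collagen V, which co-assembles with collagen I and limits fibril width, also rose. Col5a1 read 10.60 and 10.74 in embryoid bodies labelled Bmi1 and 11.52 and 10.20 in vector embryoid bodies, against 5.69 and 6.02 in ES cells labelled Bmi1 and 5.61 and 5.63 in control ES cells. Col5a2 read 11.18 and 10.67 in embryoid bodies labelled Bmi1 and 11.64 and 9.79 in vector embryoid bodies, against 7.82 and 7.69 in ES cells labelled Bmi1 and 5.82 and 5.74 in control ES cells. Col5a1 rose by 4.82 ± 0.39 in the Bmi1 arm and 5.24 ± 0.39 in the control arm, and Col5a2 by 3.17 ± 0.53 in the Bmi1 arm and 4.94 ± 0.53 in the control arm. By the second probe set Col5a2 differed by 4.76 in the Bmi1 arm and 6.58 in the control arm, and by the other 2 probe sets Col5a1 differed by 2.01 and 2.47 in the Bmi1 arm and 2.33 and 2.51 in the control arm. The Col5a2 ES cell arrays fell into separate pairs by label, which is taken up with the ES cell comparison. The third chain, Col5a3, was dim and read 5.09 and 5.22 in embryoid bodies labelled Bmi1 and 5.33 and 5.03 in vector embryoid bodies, against 4.80 to 5.18 in the 4 ES cell arrays.

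The cartilage fibrillar collagens moved less. Col11a1, a chain of the collagen XI that nucleates cartilage fibrils, rose by 2.32 ± 0.54 in the Bmi1 arm and 2.15 ± 0.54 in the control arm. Its partner Col11a2 went the other way: it read 5.11 and 4.73 in embryoid bodies labelled Bmi1 and 5.12 and 4.81 in vector embryoid bodies, against 5.62 and 5.41 in ES cells labelled Bmi1 and 5.94 and 5.76 in control ES cells. It fell by 0.60 in the Bmi1 arm (adjusted p = 0.0415) and by 0.88 in the control arm (adjusted p = 0.00928; SE 0.21 each). Without the filter on dim genes the Bmi1 arm call was lost (adjusted p = 0.0502), as it was with a trended robust prior. In both arms the call was also lost in some of the fits with a single array left out. Col2a1, the chain of cartilage collagen II, rose by 1.51 ± 0.52 in the control arm (adjusted p = 0.0391), and differed by 0.58 ± 0.52 in the Bmi1 arm (adjusted p = 0.37, and 0.0416 with the embryoid body replicate number as a block). The control arm call was lost with quantile normalization (adjusted p = 0.0934), without vector embryoid body replicate 2 (0.95, adjusted p = 0.159), without either ES cell array labelled Bmi1 (1.51, adjusted p = 0.0593), without the untreated array (1.72, adjusted p = 0.0855) and without the empty vector ES cell array (1.30, adjusted p = 0.165). Col27a1, found in developing cartilage, differed by -0.01 ± 0.23 in the Bmi1 arm and 0.19 ± 0.23 in the control arm and did not pass in either arm, and the minor fibrillar collagen Col24a1 was dim in all arrays, at 2.67 to 3.05.

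Stretches of 250 bases before the annotated starts of Col3a1 (chr1:45311288-45311537, plus strand) and Col1a2 (chr6:4505368-4505617, plus strand; RefSeq, GRCm38.p6) show how unlike the upstream sequences of these strongly raised genes are. Both were chosen for display after their values were seen. Capitals mark a CCAAT box (CCAAT or ATTGG), the motif bound by NF-Y, a GC box (GGGCGG or CCGCCC), the motif bound by Sp1, or a TATA element (TATAAA or TTTATA), searched on both strands.
Col3a1: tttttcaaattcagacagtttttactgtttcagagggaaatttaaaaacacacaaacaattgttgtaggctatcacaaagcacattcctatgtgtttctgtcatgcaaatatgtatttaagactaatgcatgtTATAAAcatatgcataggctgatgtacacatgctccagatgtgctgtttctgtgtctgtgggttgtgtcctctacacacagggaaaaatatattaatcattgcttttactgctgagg
Col1a2: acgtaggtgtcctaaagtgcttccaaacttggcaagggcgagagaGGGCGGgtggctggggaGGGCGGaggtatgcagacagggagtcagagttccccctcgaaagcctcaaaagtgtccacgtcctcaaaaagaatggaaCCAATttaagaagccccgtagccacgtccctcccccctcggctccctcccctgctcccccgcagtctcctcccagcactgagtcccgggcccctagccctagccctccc
The Col3a1 stretch is 35.2% G or C and holds 1 TATA element, whose first base lies 117 bases before the start. The Col1a2 stretch is 62% G or C and holds 2 GC boxes and 1 CCAAT box, and the CCAAT box begins 109 bases before the start. Of the 33 members with a window in the table, 22 were tested, and of these 10 held a CCAAT box, 15 a GC box and 3 a TATA element, beside 33.8%, 32.7% and 12.4% of all 32851 windows of the same length. A gene with several annotated starts had more than 1 chance to hold a motif.

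Of the 6 collagen IV genes, the scaffold of the basement membrane, 4 were tested, and these 4 rose in both arms. Col4a5 and Col4a6 passed the filter through embryoid body arrays alone, so their rise was to some extent bound to appear. Over all genes, 21.2% rose in the Bmi1 arm and 22.7% in the control arm. Col4a1 read 10.92 and 11.15 in embryoid bodies labelled Bmi1 and 10.66 and 11.22 in vector embryoid bodies, against 8.61 and 8.75 in ES cells labelled Bmi1 and 7.33 and 7.93 in control ES cells. Its partner in the common α1α1α2 trimer, Col4a2, read 9.79 and 10.27 in embryoid bodies labelled Bmi1 and 9.50 and 10.30 in vector embryoid bodies, against 6.48 and 6.74 in ES cells labelled Bmi1 and 4.63 and 6.00 in control ES cells. Col4a1 rose by 2.36 ± 0.27 in the Bmi1 arm and 3.31 ± 0.27 in the control arm. Col4a2 rose by 3.42 ± 0.47 in the Bmi1 arm and 4.59 ± 0.47 in the control arm. The 4 embryoid body arrays lay above the 4 ES cell arrays for each gene.

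Col4a5, a chain of the tissue-restricted collagen IV trimers, read 8.18 and 8.23 in embryoid bodies labelled Bmi1 and 9.30 and 8.11 in vector embryoid bodies, against 4.57 and 4.33 in ES cells labelled Bmi1 and 4.62 and 4.35 in control ES cells. Col4a6, its partner in the α5α5α6 trimer, read 6.85 and 7.02 in embryoid bodies labelled Bmi1 and 8.00 and 7.14 in vector embryoid bodies, against 5.21 and 5.36 in ES cells labelled Bmi1 and 5.42 and 5.20 in control ES cells. Col4a5 rose by 3.75 ± 0.36 in the Bmi1 arm and 4.22 ± 0.36 in the control arm, and Col4a6 by 1.65 ± 0.28 in the Bmi1 arm and 2.26 ± 0.28 in the control arm. By the second probe set Col4a5 differed by 6.75 in the Bmi1 arm and 7.31 in the control arm, and Col4a6 by 2.85 in the Bmi1 arm and 3.33 in the control arm. The highest embryoid body array of both genes was vector replicate 1. Col4a3 and Col4a4, which join Col4a5 in the kidney filter, were dim, at 4.07 to 5.20 and 3.39 to 4.13 over the 8 arrays.

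Col4a1 and Col4a2 on chromosome 8, and Col4a6 and Col4a5 on chromosome X, are head-to-head pairs, transcribed away from a shared region. The upstream stretches of the X-linked pair (Col4a5 chrX:141475169-141475369, plus strand; Col4a6 chrX:141474096-141474326, minus strand; RefSeq, GRCm38.p6) show the sequence from which both genes are read outward. They are without the 49 and 19 bases nearest the window's start that lie in another annotated transcript of the same gene, and capitals mark the same motifs.
Col4a5: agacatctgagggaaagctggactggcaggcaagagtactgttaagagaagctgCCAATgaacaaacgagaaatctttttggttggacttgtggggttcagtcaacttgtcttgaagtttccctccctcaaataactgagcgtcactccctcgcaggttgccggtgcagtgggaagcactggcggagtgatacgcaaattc
Col4a6: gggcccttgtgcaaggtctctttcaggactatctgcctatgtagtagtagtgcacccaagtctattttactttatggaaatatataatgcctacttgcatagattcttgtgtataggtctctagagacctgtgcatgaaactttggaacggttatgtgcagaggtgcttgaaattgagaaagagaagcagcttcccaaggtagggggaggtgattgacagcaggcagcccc
The Col4a5 stretch holds 1 CCAAT box and the Col4a6 stretch none of the 3 motifs, while the full window of each holds a GC box outside the bases shown. Both genes of each of these pairs, all of them tested, moved in the same direction between stages in both arms. A shared direction was likely, since 24 of the 29 tested members lay above 0 in the Bmi1 arm and 27 in the control arm. The neighbouring but not head-to-head pair Col3a1 and Col5a2 on chromosome 1 also rose together, as did Col6a1 and Col6a2 on chromosome 10. The neighbours Col9a1 and Col19a1 on chromosome 1 did not, with Col19a1 dim and at 0.03 in the Bmi1 arm and -0.05 in the control arm, nor did the dim neighbours Col4a4 (-0.12 in the Bmi1 arm and 0.13 in the control arm) and Col4a3 (0.06 in the Bmi1 arm and -0.15 in the control arm). No promoter window was found for Col4a3, so its strand, and whether it lies head-to-head with Col4a4, were not read. The dim neighbours Col6a5 and Col6a4 both averaged lower in embryoid bodies, where Col6a5 differed by -0.38 in the Bmi1 arm and -0.62 in the control arm, and Col6a4 by -0.59 in the Bmi1 arm and -0.62 in the control arm.

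Of the 5 collagen VI chains of the beaded filaments, 3 were tested, and these 3 rose in both arms. Col6a1 passed the filter through embryoid body arrays alone, so its rise was to some extent bound to appear. Over all genes, 21.2% rose in the Bmi1 arm and 22.7% in the control arm. Col6a1 read 9.46 and 8.73 in embryoid bodies labelled Bmi1 and 10.63 and 8.68 in vector embryoid bodies, against 4.52 and 4.08 in ES cells labelled Bmi1 and 4.14 and 4.49 in control ES cells. Col6a2 read 10.22 and 8.97 in embryoid bodies labelled Bmi1 and 11.45 and 8.79 in vector embryoid bodies, against 6.83 and 6.72 in ES cells labelled Bmi1 and 6.98 and 6.72 in control ES cells. Col6a3 read 9.15 and 8.58 in embryoid bodies labelled Bmi1 and 9.90 and 8.08 in vector embryoid bodies, against 5.24 and 5.07 in ES cells labelled Bmi1 and 5.21 and 5.76 in control ES cells. The 3 chains are all needed for the α1α2α3 monomer, and none overlapped between stages. Col6a1 rose by 4.80 ± 0.59 in the Bmi1 arm and 5.34 ± 0.59 in the control arm. Col6a2 rose by 2.82 ± 0.79 in the Bmi1 arm and 3.27 ± 0.79 in the control arm, and Col6a3 by 3.71 ± 0.55 in the Bmi1 arm and 3.51 ± 0.55 in the control arm. The Col6a2 call was lost in the Bmi1 arm without embryoid body replicate 1 (2.20, adjusted p = 0.108), ES cell replicate 1 (2.88, adjusted p = 0.0726) or ES cell replicate 2 (2.76, adjusted p = 0.0797) of that label, and in the control arm without the empty vector ES cell array (3.14, adjusted p = 0.0543). The alternative chains Col6a4 and Col6a5 were dim. Without the filter, Col6a5 differed by -0.62 ± 0.21 in the control arm (adjusted p = 0.044).

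Among the FACITs, 4 of 7 tested members rose in each arm, where 21.2% of all genes rose in the Bmi1 arm and 22.7% in the control arm. Col14a1 and Col9a2 passed the filter through embryoid body arrays alone, so their rise was to some extent bound to appear. Col14a1, a collagen of mature fibril surfaces, read 8.59 and 7.97 in embryoid bodies labelled Bmi1 and 8.83 and 8.21 in vector embryoid bodies, against 4.62 and 4.48 in ES cells labelled Bmi1 and 4.37 and 5.25 in control ES cells. Col9a1, a chain of the collagen IX that coats cartilage fibrils, read 7.80 and 7.92 in embryoid bodies labelled Bmi1 and 7.90 and 7.80 in vector embryoid bodies, against 5.85 and 5.55 in ES cells labelled Bmi1 and 5.68 and 5.55 in control ES cells. Both were separated from ES cells in all arrays, Col14a1 by 3.73 ± 0.36 in the Bmi1 arm and 3.71 ± 0.36 in the control arm, and Col9a1 by 2.16 ± 0.18 in the Bmi1 arm and 2.24 ± 0.18 in the control arm. The second Col9a1 probe set differed by 5.73 in the Bmi1 arm and 5.87 in the control arm. The collagen IX partner Col9a2 rose by 1.06 ± 0.24 in the Bmi1 arm and 1.34 ± 0.24 in the control arm. The third chain, Col9a3, differed by -0.02 ± 0.21 in the Bmi1 arm and 0.39 ± 0.21 in the control arm and did not pass. With the embryoid body replicate number as a block, Col9a3 passed in the control arm (limma, adjusted p = 0.0222). Col12a1, which binds collagen I fibrils, rose by 0.62 ± 0.16 in the Bmi1 arm and 0.74 ± 0.16 in the control arm, calls that were lost with quantile normalization (0.37 in the Bmi1 arm and 0.51 in the control arm). The Bmi1 arm call was also lost without embryoid body replicate 1 labelled Bmi1 (0.51, adjusted p = 0.0711) and without ES cell replicate 1 (0.54, adjusted p = 0.104) or replicate 2 (0.69, adjusted p = 0.053) of that label, and the control arm call without either control ES cell array (0.74, adjusted p = 0.0504, without the untreated one, and 0.75, adjusted p = 0.0501, without the empty vector one). Its 4 probe sets did not move alike, with differences of -0.31 to 2.02 in the control arm.

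Col16a1, a FACIT of several connective tissues, read 7.80 and 6.71 in embryoid bodies labelled Bmi1 and 7.79 and 6.67 in vector embryoid bodies, against 6.94 and 6.93 in ES cells labelled Bmi1 and 6.98 and 6.92 in control ES cells. Its embryoid body arrays lay on both sides of the ES cell arrays by replicate number, and it did not pass in either arm. With the embryoid body replicate number as a block it passed in both (Bmi1 arm 0.32, adjusted p = 0.0268, and control arm 0.28, adjusted p = 0.0434). Col20a1 differed by 0.38 ± 0.25 in the Bmi1 arm and 0.33 ± 0.25 in the control arm and did not pass. Col22a1, a collagen of tissue junctions, and Col19a1 were dim.

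The other classes were small. Col18a1, the multiplexin of basement membranes from which endostatin is cleaved, read 9.90 and 10.34 in embryoid bodies labelled Bmi1 and 10.18 and 10.37 in vector embryoid bodies, against 11.00 and 11.31 in ES cells labelled Bmi1 and 11.03 and 11.16 in control ES cells. It fell by 1.04 in the Bmi1 arm (adjusted p = 0.0053) and by 0.82 in the control arm (adjusted p = 0.0138; SE 0.21 each). After quantile normalization it differed by -0.23 in the Bmi1 arm and -0.04 in the control arm, and neither call was kept. The control arm call was also lost without the untreated array (-0.89, adjusted p = 0.0558) and without the empty vector ES cell array (-0.76, adjusted p = 0.0864). The second Col18a1 probe set differed by -0.63 in the Bmi1 arm and -0.01 in the control arm. The other multiplexin, Col15a1, was dim, and without the filter it rose by 0.90 in the Bmi1 arm (adjusted p = 0.021) and 1.04 in the control arm (adjusted p = 0.012).

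Of the transmembrane collagens, Col13a1, found at cell-matrix contacts, read 7.67 and 7.42 in embryoid bodies labelled Bmi1 and 7.62 and 6.79 in vector embryoid bodies, against 5.76 and 5.05 in ES cells labelled Bmi1 and 5.69 and 5.51 in control ES cells. Col23a1 read 6.39 and 6.32 in embryoid bodies labelled Bmi1 and 6.69 and 6.72 in vector embryoid bodies, against 3.79 and 4.12 in ES cells labelled Bmi1 and 3.95 and 3.72 in control ES cells. Col13a1 rose by 2.14 ± 0.34 in the Bmi1 arm and 1.60 ± 0.34 in the control arm, and Col23a1 by 2.40 ± 0.18 in the Bmi1 arm and 2.87 ± 0.18 in the control arm. Col25a1, a neuronal collagen, depended on the probe set. By the probe set used it read 7.39 and 6.43 in embryoid bodies labelled Bmi1 and 6.98 and 6.65 in vector embryoid bodies, against 6.55 and 6.59 in ES cells labelled Bmi1 and 6.73 and 6.60 in control ES cells, and did not pass, except in the Bmi1 arm without embryoid body replicate 2 of that label (0.82, adjusted p = 0.0214). By its second probe set it read 6.22 and 6.80 in embryoid bodies labelled Bmi1 and 6.82 and 7.11 in vector embryoid bodies, against 3.30 and 3.21 in ES cells labelled Bmi1 and 3.09 and 2.98 in control ES cells, and with the mean of both probe sets it rose by 1.80 in the Bmi1 arm and 2.04 in the control arm. Col17a1, the collagen of hemidesmosomes, was dim, and without the filter rose by 1.17 in the Bmi1 arm (adjusted p = 0.001) and 0.89 in the control arm (adjusted p = 0.004).

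Col7a1, the anchoring fibril collagen of skin, read 6.58 and 6.13 in embryoid bodies labelled Bmi1 and 6.36 and 6.17 in vector embryoid bodies, against 6.17 and 6.76 in ES cells labelled Bmi1 and 6.24 and 6.21 in control ES cells, with overlap between stages. Col26a1, known from testis and ovary, read 6.39 and 6.77 in embryoid bodies labelled Bmi1 and 6.48 and 7.13 in vector embryoid bodies, against 4.32 and 4.27 in ES cells labelled Bmi1 and 4.43 and 4.30 in control ES cells, a rise of 2.29 ± 0.25 in the Bmi1 arm and 2.44 ± 0.25 in the control arm. The short-chain network collagens, Col8a1 and Col8a2 of vessel walls and Descemet's membrane and Col10a1 of hypertrophic cartilage, were all dim. Col8a1 read 5.34 and 5.26 in embryoid bodies labelled Bmi1 and 5.35 and 5.38 in vector embryoid bodies, against 4.50 and 4.67 in ES cells labelled Bmi1 and 5.11 and 4.34 in control ES cells. Col8a2 read 5.17 and 5.10 in embryoid bodies labelled Bmi1 and 5.92 and 4.89 in vector embryoid bodies, against 5.81 and 5.03 in ES cells labelled Bmi1 and 5.13 and 5.07 in control ES cells. Col10a1 lay between 4.34 and 5.21 in all 8 arrays, and none of the 3 passed without the filter.

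**Figure D2:**
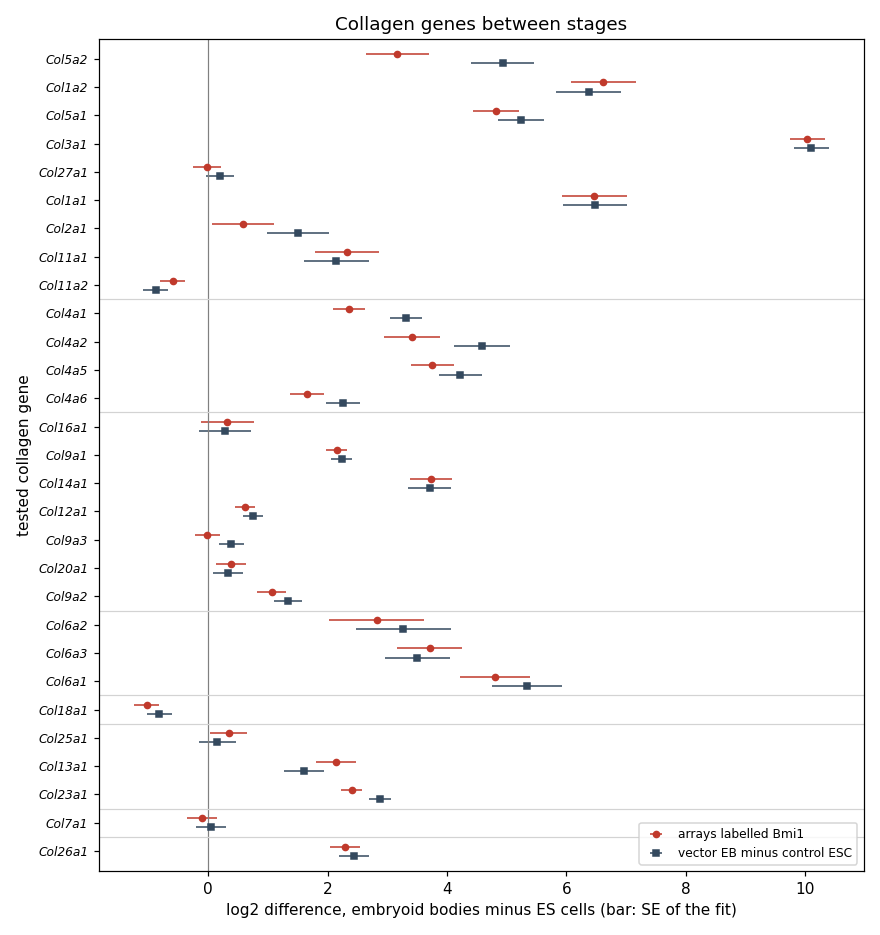
Log2 difference, embryoid bodies minus ES cells (points, with the SE of the limma fit as bars), of the 29 tested collagens in the Bmi1 arm and in the control arm, by class from fibrillar at the top. Col3a1 lies at 10.04 in the Bmi1 arm and 10.11 in the control arm, most fibrillar, collagen IV and collagen VI genes lie above 2, and Col11a2 and Col18a1 lie below 0 in both arms.

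Genes that make and handle collagen moved in both directions between stages. Of 17 tested genes of collagen modification and folding, 7 rose and 4 fell in the Bmi1 arm, and 9 rose and 2 fell in the control arm. Over all genes, 21.2% rose and 38% fell in the Bmi1 arm, and 22.7% rose and 35.8% fell in the control arm. In either direction 64.7% of the 17 were called in each arm, beside 59.2% of all genes in the Bmi1 arm and 58.5% in the control arm. Serpinh1 (HSP47), the collagen chaperone of the endoplasmic reticulum, read 10.61 and 10.88 in embryoid bodies labelled Bmi1 and 11.21 and 11.32 in vector embryoid bodies, against 8.54 and 8.34 in ES cells labelled Bmi1 and 7.44 and 7.28 in control ES cells, which was a rise of 2.30 in the Bmi1 arm and 3.91 in the control arm. P4ha2, a prolyl 4-hydroxylase subunit, rose by 2.10 in the Bmi1 arm and 3.40 in the control arm, and P3h2, a prolyl 3-hydroxylase, by 1.62 in the Bmi1 arm and 2.73 in the control arm. Of 8 tested export and processing genes, 3 rose and 1 fell in each arm, 50% called in either direction, which is no more than over all genes. The propeptidase Adamts3 rose by 2.82 in the Bmi1 arm and 3.68 in the control arm. Creb3l1, a transcription factor of the secretory response, rose by 2.26 in the Bmi1 arm and 2.78 in the control arm, and Pcolce2, an enhancer of procollagen cleavage, fell by 4.45 in the Bmi1 arm and 4.52 in the control arm. Of the 4 tested lysyl oxidases, which crosslink fibrils, 2 rose in the Bmi1 arm (21.2% of all genes did) and 3 in the control arm (22.7% did). Lox differed by 3.87 in the Bmi1 arm and 4.11 in the control arm, Loxl1 by 1.40 in the Bmi1 arm (adjusted p = 0.104) and 3.25 in the control arm, and Loxl3 by 0.67 in the Bmi1 arm and 0.88 in the control arm.

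Of 8 tested fibrillar matrix partners, 7 rose in the Bmi1 arm, where 21.2% of all genes rose, and 6 in the control arm, where 22.7% did. Postn (periostin, a collagen-binding protein) rose by 7.49 in the Bmi1 arm and 7.54 in the control arm. Fbn2, a fibrillin, rose by 4.44 in the Bmi1 arm and 5.17 in the control arm, and Tnc (tenascin C) by 3.60 in the Bmi1 arm and 3.15 in the control arm. The partners of collagen IV moved less uniformly. Of 12 tested, 5 rose and 3 fell in the Bmi1 arm, and 4 rose and 1 fell in the control arm, 66.7% called in the Bmi1 arm and 41.7% in the control arm, beside 59.2% of all genes in the Bmi1 arm and 58.5% in the control arm. Lama4, a laminin chain of vessels, rose by 2.55 in the Bmi1 arm and 3.03 in the control arm, and Sparc, a collagen-binding protein that both partner lists hold, by 1.36 in the Bmi1 arm and 2.13 in the control arm. Lamc1, the laminin γ1 chain, fell by 1.22 in the Bmi1 arm and 1.51 in the control arm. Of 5 tested collagen receptors, 3 rose in the Bmi1 arm (21.2% of all genes did) and 4 in the control arm (22.7% did). Among them, the integrin chain Itga1 was higher by 1.04 in the Bmi1 arm and 1.56 in the control arm. Of 7 tested genes of collagen breakdown, 5 rose in the Bmi1 arm and 6 in the control arm, beside the same shares of all genes. In each arm 1 fell. The protease inhibitor Timp2 rose by 2.04 in the Bmi1 arm and 3.23 in the control arm, its relative Timp3 by 2.37 in the Bmi1 arm and 3.14 in the control arm, and the gelatinase Mmp2 by 1.35 in the Bmi1 arm and 2.84 in the control arm.

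Marker lists of several cell types also differed between stages. Over all genes, 21.2% rose and 38% fell in the Bmi1 arm, and 22.7% rose and 35.8% fell in the control arm. Of 11 mesenchyme and fibroblast markers, 10 rose in each arm. Lum differed by 8.75 in the Bmi1 arm and 8.29 in the control arm, Pdgfra by 6.62 in the Bmi1 arm and 6.42 in the control arm and Snai2 by 6.35 in the Bmi1 arm and 6.11 in the control arm. The log2 of their summed signal was 14.50 and 14.24 in embryoid bodies labelled Bmi1 and 14.82 and 13.90 in vector embryoid bodies, against 11.43 to 11.83 in ES cells. Of the 12 parietal and visceral endoderm markers 10 were tested, of which 9 rose in the Bmi1 arm and 10 in the control arm. Their summed log2 signal was 12.65 to 13.04 in embryoid bodies, against 8.83 to 9.26 in ES cells. Of 6 tested cartilage markers, 4 rose in each arm, and 2 fell in the Bmi1 arm and 1 in the control arm, while the cartilage matrix genes Acan and Matn1 and the chondrocyte gene Cnmd were dim. Among 2 tested bone markers, 0 rose in either arm, and 1 fell in the control arm. Endothelial markers rose for 4 of 8 in the Bmi1 arm and 6 of 8 in the control arm. From 4 tested smooth muscle markers, 2 rose and 1 fell in the Bmi1 arm, and 3 rose in the control arm. For 6 epithelial markers, 3 rose and 1 fell in the Bmi1 arm, and 3 rose and 2 fell in the control arm. The part of these cell types in the collagen levels was not tested.

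Between embryoid bodies labelled Bmi1 and vector embryoid bodies, no collagen passed. Of the 29 tested, 0 were called by limma, where 0.139% of all genes were. Of the same 29, 0 had an unadjusted p under 0.05, where 7.06% of all genes did. Again 0 were called with the embryoid body replicate number as a block, where 2.09% were (2 had an unadjusted p under 0.05 in that fit). The median difference was -0.05 over the tested collagens and -0.04 over all genes. The collagen median was -0.34 without vector replicate 2 and 0.11 without vector replicate 1, so its sign rests on 1 array. The groups did not overlap for 3 collagens, all lower under the Bmi1 label, where 25.2% of all genes did not overlap. They were Col4a6 (-0.64 ± 0.28, SE, n = 2 and 2 arrays; adjusted p = 0.733), Col23a1 (-0.35 ± 0.18, adjusted p = 0.786) and Col12a1 (-0.30 ± 0.16, adjusted p = 0.809). Col12a1 read 6.68 and 6.46 in embryoid bodies labelled Bmi1, and 6.91 and 6.83 in vector embryoid bodies. Its other probe sets did not move alike here, with differences of -0.47, 0.54 and 0.09. Col4a5 followed with -0.50 ± 0.36. The size of these differences moved with single arrays: Col4a5 was at -1.10 without vector replicate 2 and 0.10 without vector replicate 1, Col4a6 at -1.06 without vector replicate 2 and -0.21 without vector replicate 1, and Col12a1 at -0.41 without Bmi1 replicate 1 and -0.19 without Bmi1 replicate 2. The bounds on the difference stayed wide: the 95% interval was -0.79 to 0.59 for Col3a1, -1.25 to 1.31 for Col1a2, -0.54 to 0.73 for Col4a1 and -2.39 to 1.35 for Col6a2.

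The 2 replicate numbers, each an array set, gave different pictures for the fibrillar and beaded filament classes. Between the arrays numbered 1, the fibrillar median was -0.34 and the collagen VI median -1.17, while between the arrays numbered 2 they were 0.54 and 0.18. In all, 12 of the 29 tested collagens were lower under the Bmi1 label in replicate 1 and higher in replicate 2, 7 of the 9 fibrillar and all 3 collagen VI genes among them, where 20.6% of all genes did so. For Col1a2 and Col6a2 the order of the 4 arrays was the same: vector replicate 1 highest, then Bmi1 replicate 1, then Bmi1 replicate 2, then vector replicate 2. The crosslinking enzyme Lox had this order too, at 8.75 and 7.72 in embryoid bodies labelled Bmi1 and 9.64 and 6.94 in vector embryoid bodies, and so did the summed mesenchyme markers. The summed ES cell markers had the reverse order, at 12.02 and 13.28 in embryoid bodies labelled Bmi1 and 11.66 and 13.70 in vector embryoid bodies, and their part in the result was not tested. The median gap between replicates of the tested collagens was 0.48 in embryoid bodies labelled Bmi1 and 0.65 in vector embryoid bodies, where over all genes it was 0.335 in embryoid bodies labelled Bmi1 and 0.41 in vector embryoid bodies, with the widest for Col6a2 in vector embryoid bodies at 2.66.

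**Figure D3:**
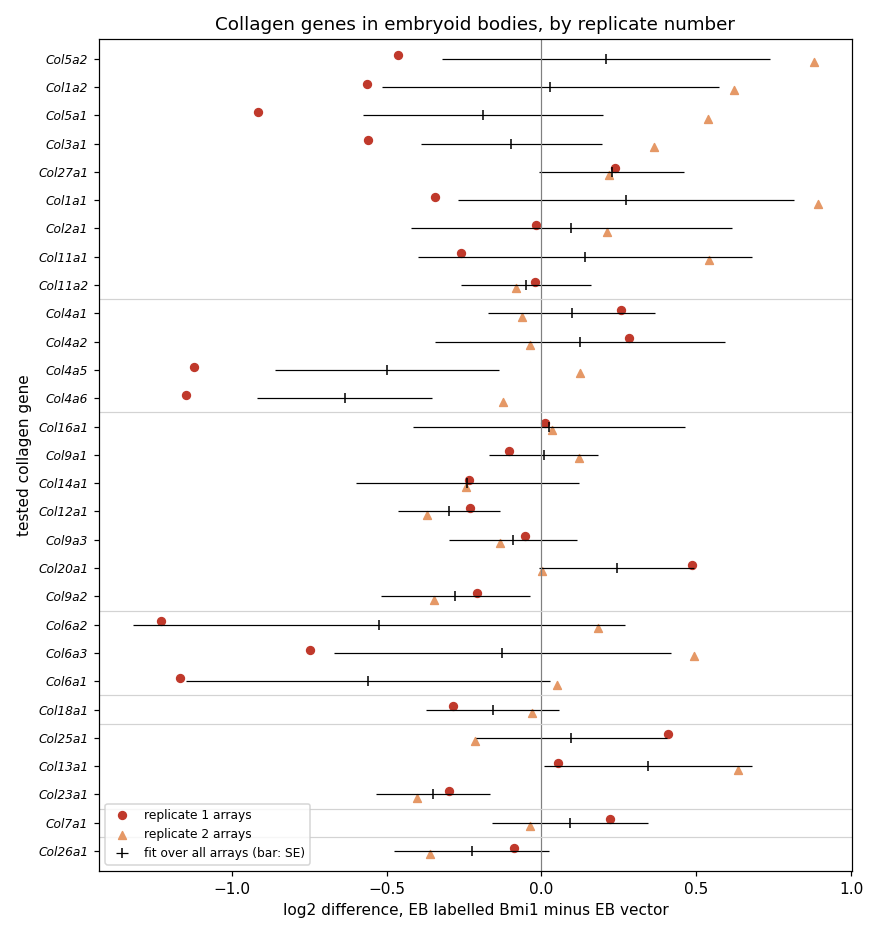
Log2 difference, embryoid bodies labelled Bmi1 minus vector embryoid bodies, of the 29 tested collagens: within replicate 1 (circles), within replicate 2 (triangles), and by the limma fit with its SE (ticks and bars). Most fibrillar genes and the 3 collagen VI genes lie left of 0 in replicate 1 and right of 0 in replicate 2, and Col12a1 and Col23a1 lie left of 0 in both.

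The list genes gave no call in embryoid bodies by the main model in any of the 7 collagen pathway lists. Serpinh1 differed by -0.52 ± 0.18 (adjusted p = 0.544) and Plod1, a collagen lysyl hydroxylase, by -0.71 ± 0.25 (adjusted p = 0.575). For both genes, neither Bmi1 array reached the lower vector array. Fbln1, a fibulin of basement membranes, differed by -1.12 ± 0.29 (adjusted p = 0.329). With the replicate block, which called 0.739% of all genes lower, 3 of 8 endothelial markers were called lower, among them Emcn (-0.96) and Tek (-1.09). So were 2 of the 10 tested endoderm markers, Gata4 (-1.04) and Sox17 (-0.83), with a median of -0.66 over these 10.

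In ES cells labelled Bmi1, Col5a2, Col4a1, Col4a2 and Col2a1 read higher than in control ES cells, but none was called. Of the 29 tested collagens, 0 passed by limma, where 0.0462% of all genes did, 3 had an unadjusted p under 0.05, where 6.29% did, and the groups did not overlap for 13 (9 higher and 4 lower), where 45.6% of all genes did not overlap. With the embryoid body replicate number as a block, 1 collagen passed, where 1.66% of all genes did. It was Col5a2, at 7.82 and 7.69 in ES cells labelled Bmi1, against 5.82 and 5.74 in control ES cells, a difference of 1.98 ± 0.53 (95% interval 0.73 to 3.22; adjusted p = 0.381, and 0.0325 with the block). Fitted on the 4 ES cell arrays alone it also passed (adjusted p = 0.0182), where 120 of the 12982 genes tested were called higher and 19 lower. It was not called with no filter (adjusted p = 0.436), quantile normalization, the mean of probe sets or a trended robust prior. With single arrays left out, the Col5a2 difference was 1.91 to 2.04. Its second probe set read 5.12 and 5.24 in ES cells labelled Bmi1, against 3.22 and 3.47 in control ES cells.

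Col4a1 read 8.61 and 8.75 in ES cells labelled Bmi1, against 7.33 and 7.93 in control ES cells, a difference of 1.05 ± 0.27 (adjusted p = 0.353, and 0.0701 with the block). The Col4a1 difference was 0.76 without the untreated array and 1.35 without the empty vector array. Col4a2 read 6.48 and 6.74 in ES cells labelled Bmi1, against 4.63 and 6.00 in control ES cells, a difference of 1.29 ± 0.47 (adjusted p = 0.643), which was 0.60 without the untreated array and 1.98 without the empty vector array. Col2a1 read 6.30 and 6.80 in ES cells labelled Bmi1, against 5.72 and 5.31 in control ES cells, a difference of 1.03 ± 0.52 (adjusted p = 0.978, and 0.0785 with the block). In all 3 genes both Bmi1 arrays lay above both controls. The chains Col1a1, Col1a2 and Col3a1 differed by 0.29 ± 0.54, -0.21 ± 0.54 and -0.03 ± 0.29, and Col4a5 and Col4a6 by -0.03 ± 0.36 and -0.02 ± 0.28. The median over the tested collagens was -0.01, beside 0.00 over all genes.

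Among genes of the collagen pathway lists, Serpinh1 was higher in ES cells labelled Bmi1 by 1.08 ± 0.18 (adjusted p = 0.128, and 0.0282 with the block). The prolyl hydroxylase subunit P4ha2 was higher by 1.28 ± 0.30 (adjusted p = 0.278) and the collagen receptor Ddr1 by 1.03 ± 0.37 (adjusted p = 0.636, and 0.0405 with the block). In this comparison the fit with the block called 1.66% of all genes. Loxl1 differed by 1.50 ± 0.66 and Mmp2 by 0.98 ± 0.29. In the same arrays the smooth muscle markers had a summed log2 signal of 10.45 and 11.32 in ES cells labelled Bmi1, against 8.49 and 9.18 in control ES cells, with none of 4 tested called and Tagln (2.56 ± 0.41) called with the block. The endoderm markers summed to 9.19 and 9.26 in ES cells labelled Bmi1, against 8.83 and 8.92 in control ES cells, with Dab2 (1.27 ± 0.20) called with the block. The mesenchyme markers summed to 11.60 and 11.46 in ES cells labelled Bmi1, against 11.43 and 11.83 in control ES cells. The 6 epithelial markers summed to 13.52 and 13.80 in ES cells labelled Bmi1, against 13.27 and 13.15 in control ES cells, with a median difference of 1.12, 0 called by limma with or without the block, and 0 with an unadjusted p under 0.05. Their part in the collagen values was not tested.

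**Figure D4:**
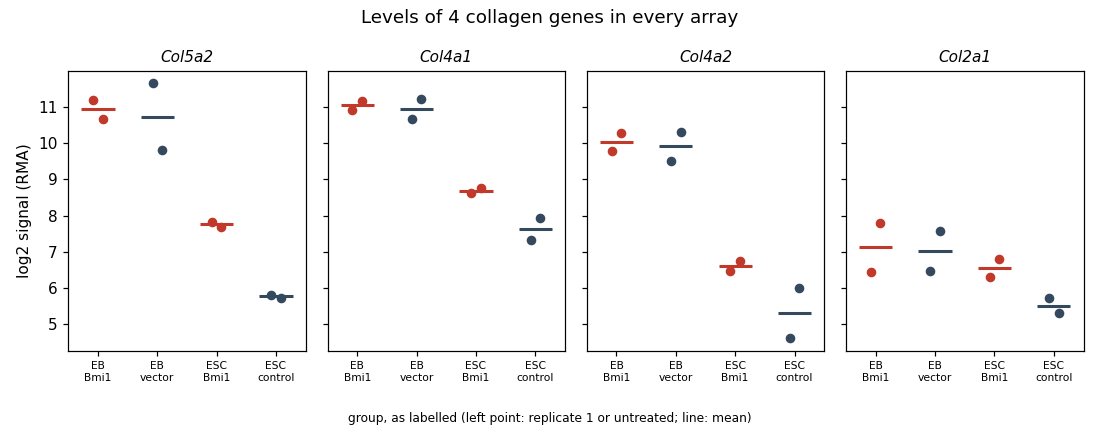
Log2 signal of Col5a2, Col4a1, Col4a2 and Col2a1 in every array (points) with the group mean (line), for embryoid bodies (EB) and ES cells (ESC) labelled Bmi1 (red) and their controls (dark). In each panel both ES cell arrays labelled Bmi1 lie above both controls, for Col5a2 at 7.82 and 7.69 under the Bmi1 label against 5.82 and 5.74 in the controls, while the embryoid body groups overlap.

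Whether the difference under the Bmi1 label changed with the stage was tested as the embryoid body difference minus the ES cell difference. Of the 29 tested collagens 0 passed, where 0% of all genes did by the main model and 0.824% with the block (0 collagens), and 2 had an unadjusted p under 0.05, where 6.83% of all genes did. These were Col5a2, at -1.77 ± 0.75 (95% interval -3.52 to -0.01; adjusted p = 0.731), and Col4a1, at -0.96 ± 0.38 (adjusted p = 0.688). For both the ES cell difference was the larger one. Leaving out vector embryoid body replicate 2 made Col5a2 pass, at -2.69 with an adjusted p of 0.036, and leaving out vector replicate 1 gave -0.84. Col4a2 was at -1.17 ± 0.66 (-1.85 without the empty vector ES cell array and -0.48 without the untreated one), and Col2a1 at -0.93 ± 0.73 (-1.61 without Bmi1 embryoid body replicate 2 and -0.25 without Bmi1 embryoid body replicate 1).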

How the data were processed

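RMA log2 values of 8 mouse Affymetrix arrays were used. The deposited log2 signals were made by the authors with RMA, per the submitters' processing notes, of which no version was found. The array sets were read from the sorted values, whose mean absolute difference was 0.0099 to 0.0325 in 8 pairs of arrays within a set (the 4 ES cell arrays, the embryoid body replicates 1 and the embryoid body replicates 2) and 0.189 to 0.442 in 20 pairs across sets. The embryoid body replicate number is thus also a set, and the stages lie in different sets.

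After 64 control probe sets were removed, 45037 remained, of which 34945 had 1 symbol, 932 several and 9160 none. Probe sets with several symbols or none were not used. Each gene was represented by its brightest probe set, and genes above the array median in at least 2 arrays were tested. The test was limma's moderated linear model (version 3.58.1, R 4.3.3; default prior, 1 fit over 4 groups of 2 arrays, 4 residual degrees of freedom, two-sided, Benjamini-Hochberg over the 12982 genes tested, threshold 0.05). The fit was tested on simulated data. Alternatives were no filter, quantile normalization, averaging all probe sets per gene, a trended robust prior, the replicate block, 1 stage alone, and each array left out. The number of arrays limits the precision. RMA values carry no detection call.

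Members named with every array's value were Bmi1, the 3 brightest of each class, the 4 with the smallest p in each Bmi1 comparison and those called there. Others were added after their values were seen. For lists, up to 3 genes per comparison were named by smallest p or largest stage difference. The members and lists were chosen with earlier results of these data known.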

Additional observations from a re-analysis of the deposited data

How the results depend on the processing

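The deviations of the 2 embryoid body arrays numbered 1 from their group means correlated at 0.721, those of ES and embryoid body arrays at 0.027 and 0.038, and the labels give no reason for the shared numbers. With the replicate block, 1 collagen was called in ES cells labelled Bmi1 (Col5a2), against 0 in the main model, and so it was with the ES cell arrays alone (1); leaving out single arrays gave 0 to 1 there. For the change of the Bmi1 difference with stage the range was 0 to 1, with 1 without vector embryoid body replicate 2. In embryoid bodies 0 collagens were called under every alternative run. The median stage difference of 2.26 in the control arm was 0.96 with no filter, which adds the 13 dim members, and 2.71 with the mean of probe sets, which leaves 24 tested; in the Bmi1 arm 2.29 became 0.81 with no filter. The numbers of collagens called between stages moved by less than 1.5 times. No called value changed sign. The 2 arrays per group limit what can be called. In embryoid bodies 13 of the 29 tested collagens had the same sign in both replicates, where 61.7% of all genes did.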
